A study of Mus musculus with 10 samples.

Results

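The proteasome is the chamber in which cells degrade ubiquitin-tagged proteins. Its 20S core stacks rings of alpha subunits on rings of beta subunits, of which Psmb5, Psmb6 and Psmb7 carry the proteolytic sites, and the 19S cap recognizes, unfolds and threads the substrate with a ring of ATPases and a set of non-ATPase lid and base subunits. Plasma cells, and the myeloma cells that derive from them, secrete much antibody and depend on this machine, and proteasome inhibitors are standard drugs in myeloma.

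The genes described here were the protein-coding genes of the deposited table whose names begin with Psma, Psmb, Psmc, Psmd, Psme, Psmf or Psmg and a digit, without the immunoproteasome genes Psmb8 and Psmb9. There were 48 of them among 22548 genes. By role, 7 encode the alpha ring (Psma1 to Psma7), 7 the beta ring (Psmb1 to Psmb7), 6 the ATPase ring (Psmc1 to Psmc6) and 11 the non-ATPase lid and base. A further 7 encode assembly chaperones (Psmg1 to Psmg4, Psmd5, Psmd9 and Psmd10) and 6 encode activators of the core and its inhibitor Psmf1. Another 3 encode core subunits that are tissue-restricted or inducible, namely Psma8 of the testis, Psmb11 of the thymus and Psmb10, which replaces Psmb7 in the immunoproteasome. The last gene, Psmc3ip, carries the name only: it encodes a cofactor of meiotic recombination and no subunit.

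RNA-seq had been performed on osteocytes, the cells embedded in bone matrix, of 10 male C57BL/6 mice aged 8 weeks by their labels, with 1 library per mouse. The MM group was 5 mice (6 to 10) bearing Vk12598, a myeloma line from Vk*MYC mice that had been injected into the femur, and the No MM group was 5 control mice (1 to 5) without myeloma cells. Osteocytes were released from bone pieces by serial digestion with collagenase and EDTA, with no sort described, so cells of marrow and bone surface can be present. A library of bulk RNA cannot tell fewer cells of a type from less RNA per cell.

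Each library held between 31099174 and 39466332 counted reads. Levels are given as CPM, counts per 1000000 reads after TMM scaling, a normalization that assumes most genes do not differ between libraries. A floor of 3 reads was set for detection, equal to 0.0709 to 0.114 CPM depending on the library. Libraries No MM 3 and No MM 4 stood apart. In them 26.84% and 29.27% of counts fell on immunoglobulin genes, against between 0.647% and 3.98% in the other 8. Their 8 osteocyte markers summed to 1635 and 1017 CPM, against 6277 to 21058 CPM elsewhere. Col1a1 made up most of each sum, at 1198 and 693 CPM there. Col1a1, Dmp1, Phex, Pdpn and Bglap were lowest in No MM 3 and No MM 4. Sost (158 and 110 CPM) and Mepe (114 and 63.6 CPM) lay within the range of the other 8, as did Fgf23 in No MM 4. Their 6 measured plasma cell markers summed to 3711 and 3541 CPM, against 333 to 631 CPM elsewhere. All but Mzb1 were highest there. Mzb1 was at 62.9 and 65.5 CPM, against 17.4 to 87.6 CPM. Other sums were lowest in No MM 3 and No MM 4 too, at 6860 and 8063 CPM for neutrophil markers and 730 and 2418 CPM for erythroid markers. Osteoclast markers summed to 988 and 791 CPM there. No MM 1 held the highest sum of the 5 erythroid markers, 46886 CPM against 730 to 23679 CPM in the others, and of the 4 osteoclast markers, 13395 CPM against 791 to 8560 CPM. MM 6 held the lowest sum of the 4 cycling markers, 632 CPM against 1163 to 1983 CPM. No defining marker of any list was at 0 in every library. The labels name No MM 3 and No MM 4 as controls and were kept as given, although immunoglobulin and plasma cell RNA was higher there than in any MM library. Every difference between MM and No MM given here takes those labels as right, which was not tested. The part of the marker differences in the results below was not tested either.

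Of the 48 genes, 47 passed the filter on low counts. Psmb11 did not, with between 0 and 2 reads per library. Reads on the 48 genes made up between 0.398% and 0.634% of each library, from 139305 to 207851 reads. The share was highest in No MM 1 (0.634%) and MM 8 (0.550%) and lowest in No MM 4 (0.398%) and MM 6 (0.409%). It was taken over all reads, of which 29.27% in No MM 4 fell on immunoglobulin genes. After TMM scaling the 48 genes summed to 5516 CPM in No MM 4. The sums ran from 3943 to 7512 CPM in No MM and from 3604 to 4911 CPM in MM.

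Levels per length differed between roles. On the scale of mean CPM per kb over 10 libraries, Psmb1 stood highest at 212, and the 14 genes of both core rings lay between 49.4 (Psma3) and 212. The 6 ATPase genes lay between 35.0 (Psmc2) and 99.8 (Psmc3), and the 11 lid and base genes between 29.6 (Psmd11) and 116 (Psmd8). Assembly chaperones, which leave the finished particle, lay lower, between 3.53 (Psmg3) and 27.6 (Psmg4). Among activators the range was wide, from 4.68 for Psme2b to 129.9 for Psme2. Psma8 was lowest of the genes that passed, at 1.70, with between 19 and 235 reads per library.

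The comparison of MM with No MM asked whether expression of the proteasome differed in osteocytes of myeloma-bearing mice. With edgeR's quasi-likelihood test and Benjamini-Hochberg adjustment over 16186 genes, 0 of 47 members passed an adjusted p of 0.05, and 0% of all tested genes did. The smallest adjusted p among members was 0.315. DESeq2 called 0 members as well, with a smallest adjusted p of 0.102, against 1.27% of the 14868 genes to which it gave an adjusted p.

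In size and direction, 43 of 47 members had a lower fitted level in MM, and the median log2 fold change was -0.34, beside -0.03 over all tested genes, of which 52.7% were below 0. At an unadjusted p under 0.05, 12 members (25.5%) were lower in MM, beside 10.3% of all tested genes, and 0 members were higher, beside 3.81%. The 12 were Psma7, Psmb1, Psmb3, Psmb5, Psmb6, Psmb7, Psmc4, Psmd6, Psmd8, Psmd12, Psmd13 and Psmg4. DESeq2 also found 12 members lower at this threshold, beside 11.5% of the genes it tested. In no member were all 5 MM mice below all 5 No MM mice or the reverse, which held for 0.68% and 0.729% of all tested genes.

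That count rested on a few mice. Without No MM 1 it was 6 (beside 11.4% of all tested genes), without MM 6 it was also 6 (beside 10.6%), without No MM 3 it was 7 (beside 5.75%), without MM 10 it was 7 (beside 6.61%), and without No MM 5 it was 22 (beside 14.5%). Without both No MM 3 and No MM 4 it was 5 (10.6% of members, beside 3.37% of all tested genes), and the median log2 fold change was -0.33. Leaving out No MM 1 as well, a choice made after seeing the data, gave 0 members (beside 0.519%), a median of -0.02, and 25 of 47 members with a lower fitted level in MM.

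**Figure D1:**
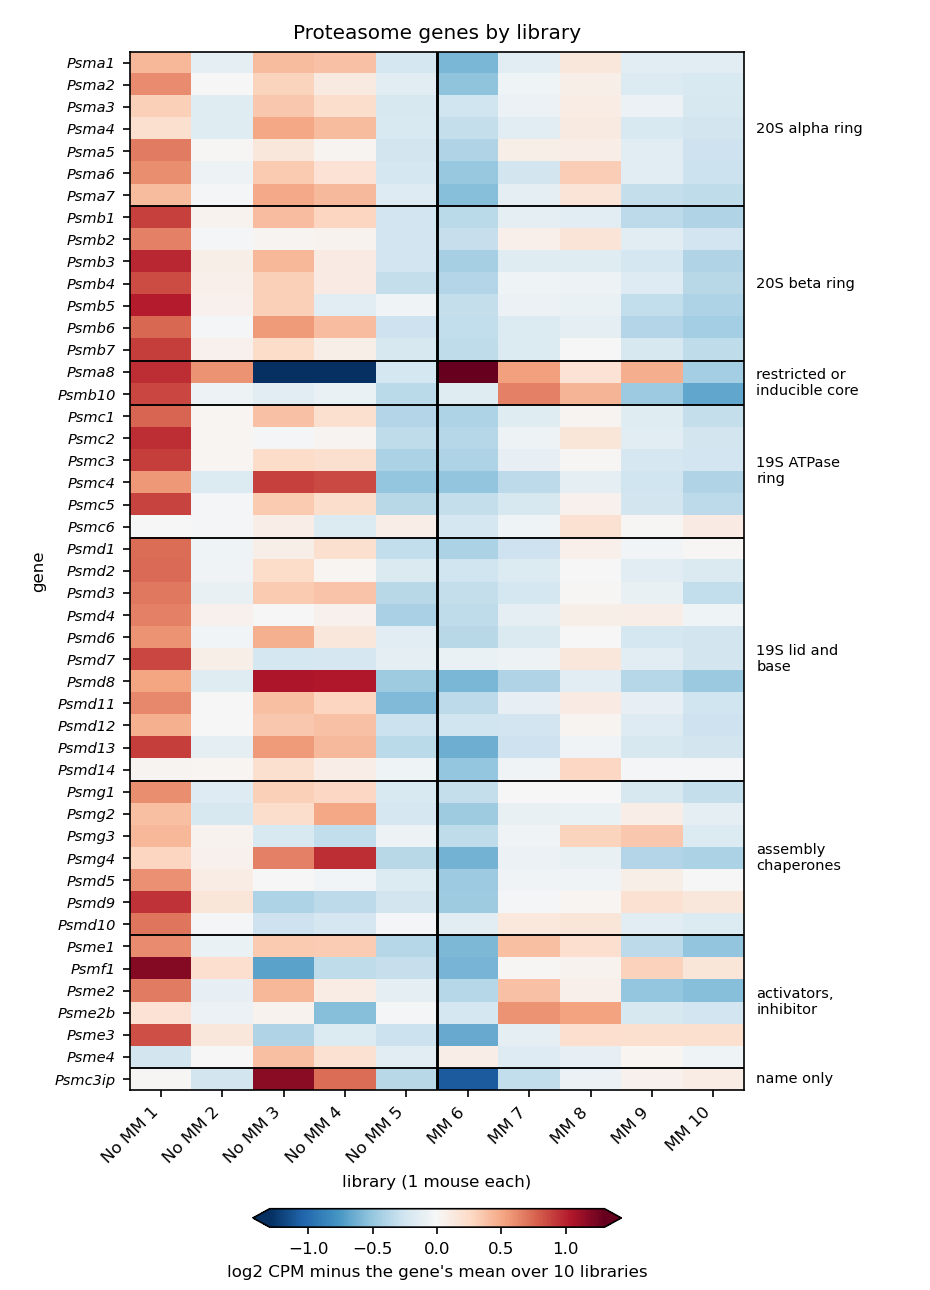
Heat map of the 47 genes that passed the filter (rows, by role) in the 10 libraries (columns), coloured by log2 CPM minus the gene's own mean over the 10 libraries; the vertical line parts No MM from MM. The No MM 1 column is above the mean for 46 of 47 genes and the No MM 5 column for 1, while MM 6 is above it for 2.

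The heat map of members by library showed that most members lay on the same side of their means within a mouse. In No MM 1, 46 of 47 members stood above their own 10-library mean, with a mean deviation of 0.62 on the log2 scale, and 34 of 47 had their highest level there, beside 19.8% of all tested genes. In MM 6, 29 members had their lowest level, beside 13.5% of all tested genes, and the mean deviation was -0.36. But the control No MM 5 lay nearly as low, with 1 of 47 members above its own mean and a mean deviation of -0.25. MM 8 lay above 0, at 0.07 with 31 members above their mean. Mean deviations thus ran from -0.25 to 0.62 in No MM and from -0.36 to 0.07 in MM, and the groups overlapped.

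No MM 3 and No MM 4 differed from the other libraries in another way. Their mean deviations were 0.21 and 0.13, but the members spread around them with an SD of 0.45 and 0.42, against 0.13 to 0.31 in the other 8 libraries. Psmd8, Psmc4, Psmc3ip and Psmg4 were far above their own means there, while Psma8, Psmf1, Psmd9 and Psme3 were below theirs.

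The beta ring held 5 of the 12 members at unadjusted p under 0.05 (71.4% of the ring, beside 10.3% of all tested genes). All 7 genes were lower in MM by fitted value, with a median log2 fold change of -0.54. In No MM 1 the mean deviation of the 7 genes was 0.86 on the log2 scale. Summed over the 7 genes, CPM was 1657, 936, 1163, 1024 and 772 in No MM 1 to 5 and 716, 844, 869, 759 and 705 in MM 6 to 10. The highest 4 values were all controls, and No MM 5 fell among the MM mice. These same 5 genes were the members at unadjusted p under 0.05 when No MM 3 and No MM 4 were left out, beside 3.37% of all tested genes. None was when No MM 1 was left out as well, and the median of the ring was then -0.16.

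Psmb5 carries the chymotrypsin-like site, the main target of bortezomib. It measured 152, 78.0, 92.7, 67.7 and 72.9 CPM in No MM 1 to 5 and 60.7, 71.2, 70.8, 60.0 and 56.9 CPM in MM 6 to 10. No MM 1 stood highest, and No MM 4 lay inside the MM range. The log2 fold change was -0.54 ± 0.22 (SE; adjusted p = 0.332), and -0.28 without No MM 1.

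Psmb6, with the caspase-like site, measured 247, 146, 216, 195 and 122 CPM in No MM and 118, 130.1, 136, 113 and 108 CPM in MM. Only the control No MM 5 lay within the MM range. Its log2 fold change was -0.61 ± 0.20 (SE; adjusted p = 0.315).

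The trypsin-like Psmb7 measured 253, 141, 159, 142 and 117 CPM in No MM and 108, 119, 135, 117 and 108 CPM in MM. Again No MM 5 alone among controls lay within the MM range, and the log2 fold change was -0.47 ± 0.21 (SE; adjusted p = 0.345), or -0.25 without No MM 1.

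Psmb1, a non-catalytic beta subunit and the highest member per kb, measured 390.4, 217, 278, 255 and 177 CPM in No MM and 165, 193, 190.5, 166 and 160.0 CPM in MM. No MM 5 lay within the MM range and the other controls above it. The log2 fold change was -0.59 ± 0.21 (SE; adjusted p = 0.315). Psmb3 was alike in size (-0.60 ± 0.22), and Psmb2, the nearest to 0 in this ring, was at -0.20 ± 0.19. Without No MM 1, Psmb3 was at -0.38 and Psmb2 at -0.04.

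The alpha ring, which gates the entry to the core, was lower in MM by fitted value for 7 of 7 genes, from -0.22 (Psma3) to -0.46 (Psma7), with a median of -0.34. At unadjusted p under 0.05 it held 1 gene (14.3%), beside 10.3% of all tested genes. Its summed CPM was 1332, 919.8, 1258, 1169 and 842 in No MM and 707, 898, 1072, 855 and 819 in MM. Here 2 controls, No MM 2 and No MM 5, lay inside the MM range, and MM 8 exceeded both.

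In the ATPase ring, 5 of 6 genes were lower in MM by fitted value, and the median was -0.44. Psmc4 alone was at unadjusted p under 0.05 (16.7% of the ring, beside 10.3% of all tested genes). Psmc4 measured 148, 88.0, 185, 180.3 and 70.5 CPM in No MM and 70.1, 78.9, 92.0, 83.2 and 75.9 CPM in MM. It was highest in No MM 3 and No MM 4, and No MM 2 and No MM 5 lay within the MM range. The log2 fold change was -0.75 ± 0.26 (SE; adjusted p = 0.315), and -0.38 without No MM 3 and No MM 4.

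Psmc6, another ATPase of the same ring, was the steadiest member, with a coefficient of variation of 8.82% over 10 libraries. It measured 94.96, 93.6, 100.4, 83.7 and 100.4 CPM in No MM and 80.9, 90.8, 109, 95.5 and 102 CPM in MM. Its log2 fold change was 0.01 ± 0.13 (SE; adjusted p = 0.972), with a 95% interval from -0.27 to 0.29, and it turned to -0.03 without No MM 3 and No MM 4. Psmc6 and Psmc4 occupy the same ring in the assembled cap, yet their fitted differences were at the opposite ends of its range.

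The non-ATPase lid and base showed 11 of 11 genes lower in MM by fitted value, with a median of -0.34. Of these, 4 were at unadjusted p under 0.05, namely Psmd6, Psmd8, Psmd12 and Psmd13 (36.4%, beside 10.3% of all tested genes). Psmd8, a lid subunit, had the lowest p of all members. It measured 232, 146, 339, 335 and 119 CPM in No MM and 108, 125, 149, 126 and 116 CPM in MM. No MM 3 and No MM 4 were the highest, and No MM 2 and No MM 5 lay within the MM range. The log2 fold change was -0.91 ± 0.29 (SE; adjusted p = 0.315), and -0.44 without No MM 3 and No MM 4. Psmd14, the deubiquitinase of the lid, was close to level at -0.10 ± 0.15 (SE).

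Psmd8 and Psmc4 both lie on chromosome 7, as do Psma1 and Psmd13. In the deposited table Psmd8 spans chr7:29174188-29180701 and Psmc4 chr7:28041707-28050101, both on the minus strand. All 4 stood above their own means in No MM 3 and No MM 4, by 0.41 to 1.05 and by 0.38 to 1.04 on the log2 scale. This was not particular to chromosome 7, as 38 of 47 members stood above their means in No MM 3 and 35 of 47 in No MM 4. The 4 genes also stood above their means in No MM 1, as did 46 of 47 members. In No MM 3 and No MM 4 the median deviation of the 778 chromosome 7 genes with a mean above 10 CPM was 0.42 and 0.47, the highest of 20 chromosomes, and in the other 8 libraries it was between -0.19 and 0.15. The part of this in the difference of Psmd8 and Psmc4 was not tested.

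**Figure D2:**
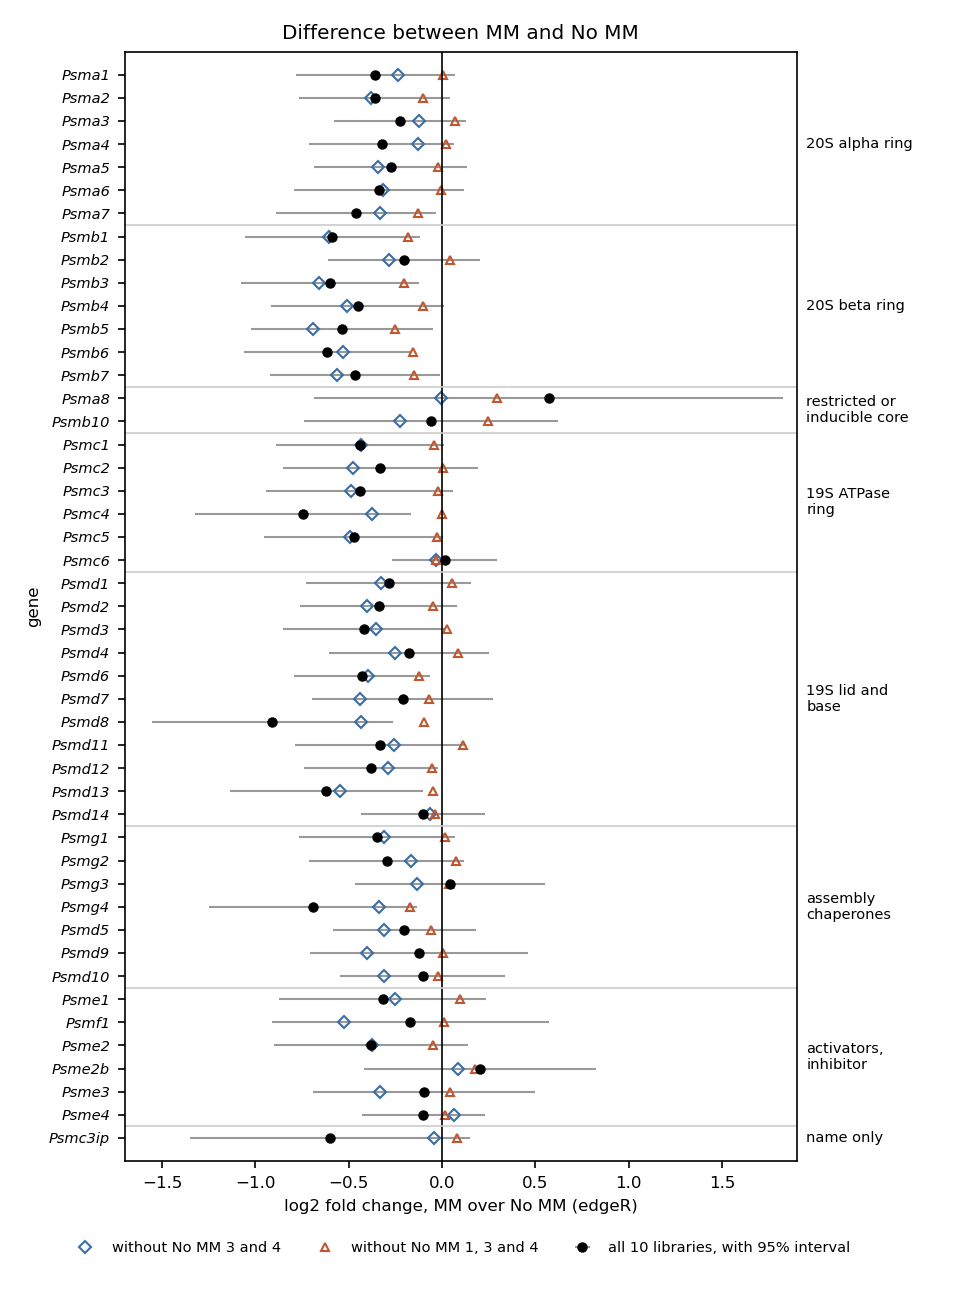
Log2 fold change, MM over No MM, of the 47 genes by role from edgeR, with 95% intervals for all 10 libraries (black), and the values without No MM 3 and 4 (blue diamonds) and without No MM 1, 3 and 4 (orange triangles). The medians of the 3 fits are -0.34, -0.33 and -0.02.

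Assembly chaperones had a median log2 fold change of -0.20, with 6 of 7 lower in MM by fitted value. Psmg4 alone was at unadjusted p under 0.05 (14.3% of the 7, beside 10.3% of all tested genes). Its log2 fold change was -0.69 ± 0.25, and -0.34 without No MM 3 and No MM 4. Psmg4 and Psmg3 encode partners in 1 heterodimer that helps build the alpha ring. Psmg3 measured 11.2, 8.59, 7.27, 6.68 and 7.96 CPM in No MM and 6.62, 8.08, 10.2, 10.6 and 7.36 CPM in MM, and the groups overlapped. Its log2 fold change was 0.04 ± 0.23 (SE; adjusted p = 0.949), and it was -0.13 without No MM 3 and No MM 4.

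Among the activators and the inhibitor, 5 of 6 were lower in MM by fitted value, with a median of -0.14. None was at unadjusted p under 0.05, beside 10.3% of all tested genes lower in MM. Psme1 and Psme2 encode the heteromeric, interferon-inducible activator of the core. Psme1 measured 213, 131, 176, 174 and 108 CPM in No MM and 92.8, 181, 161, 109 and 97.4 CPM in MM (log2 fold change -0.32 ± 0.25, adjusted p = 0.569). Psme2 measured 193, 112, 162, 129 and 111 CPM in No MM and 93.3, 157, 126, 84.8 and 81.8 CPM in MM (-0.38 ± 0.24, adjusted p = 0.471). Both genes were highest in MM 7 and next highest in MM 8 among the MM mice, at levels inside the No MM range. Without No MM 1 the fold changes were -0.20 and -0.24.

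Psme2b, a copy of Psme2 that shares much of its sequence, measured 4.34, 3.60, 3.94, 2.58 and 3.75 CPM in No MM and 3.23, 5.76, 5.51, 3.28 and 3.20 CPM in MM. It too peaked in MM 7 and MM 8, but its reads cannot be told apart with certainty from those of Psme2. The log2 fold change was 0.20 ± 0.28 (SE; adjusted p = 0.762), and 0.06 without MM 7.

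Psme3 encodes the nuclear activator of the core. It measured 335, 208, 144, 166 and 155 CPM in No MM and 119.5, 172, 218, 217 and 217 CPM in MM, with the highest and the lowest value in different groups (-0.10 ± 0.27, adjusted p = 0.890; 0.17 without No MM 1 and 0.03 without MM 6). Psme4, a large single-chain activator, measured 93.9, 111, 145, 127 and 100.04 CPM in No MM and 117, 98.8, 103, 113 and 106 CPM in MM. Unlike most members it was lowest in No MM 1 and highest in No MM 3 (-0.10 ± 0.15, adjusted p = 0.779). Without No MM 3 and No MM 4 its value was 0.06.

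Psma8, the testis form of an alpha subunit, measured 4.65, 3.58, 0.678, 0.690 and 2.01 CPM in No MM and 6.08, 3.43, 2.69, 3.31 and 1.72 CPM in MM. Its lowest values were in No MM 3 and No MM 4, and its log2 fold change of 0.57 ± 0.57 (SE; adjusted p = 0.657) was -0.01 without them, 0.98 without No MM 1 and 0.26 without MM 6. Psmc3ip measured 14.5, 12.1, 32.4, 23.8 and 11.1 CPM in No MM and 6.75, 11.4, 13.6, 14.9 and 15.3 CPM in MM. Its log2 fold change was -0.60 ± 0.34, and -0.04 without No MM 3 and No MM 4.

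Psmb10, the inducible counterpart of Psmb7, measured 115, 60.1, 57.2, 59.3 and 49.4 CPM in No MM and 56.6, 99.7, 85.7, 45.5 and 39.4 CPM in MM. MM 7 and MM 8 were high within MM, and No MM 1 was the highest of all. The log2 fold change was -0.06 ± 0.31 (SE; adjusted p = 0.942), and it was 0.21 without No MM 1, 0.04 without MM 9 and 0.07 without MM 10.

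The RNA of the inducible catalytic subunits was set against that of the constitutive ones as a log2 ratio of CPM within each mouse, for 3 pairs. Such a ratio does not show which subunits sit in assembled proteasomes. The immunoproteasome forms when interferon induces Psmb8, Psmb9 and Psmb10, which then take the places of Psmb5, Psmb6 and Psmb7. Psmb8 measured 278, 168, 615, 495 and 134 CPM in No MM and 129, 259, 215, 111 and 117 CPM in MM, with No MM 3 and No MM 4 far above the rest. Psmb9 had its highest levels in the same 2 controls, at 202 and 179 CPM, against 52.7 to 138 CPM in the other 8 mice. Psmb10 did not share this pattern, at 57.2 and 59.3 CPM.

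The Psmb8 to Psmb5 ratio was 0.86, 1.11, 2.73, 2.87 and 0.88 in No MM and 1.08, 1.86, 1.60, 0.88 and 1.05 in MM. The difference, MM minus No MM, was -0.39 (exact permutation test over all assignments of the 10 mice to groups of 5, two-sided, p = 0.413, adjusted over 3 ratios 0.619). For Psmb9 to Psmb6 the ratio was -1.16, -1.07, -0.10, -0.12 and -1.08 in No MM and -0.99, 0.09, -0.63, -0.97 and -1.04 in MM, and the difference was -0.0046 (exact permutation p = 1, adjusted 1). The ratio of Psmb10 to Psmb7 was -1.13, -1.23, -1.48, -1.26 and -1.25 in No MM and -0.92, -0.26, -0.65, -1.37 and -1.45 in MM, a difference of 0.34 (exact permutation p = 0.190, adjusted 0.571).

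No ratio differed between groups beyond the spread between mice by these tests. MM 7 and MM 8 held the highest ratios among the MM mice for all 3 pairs, while MM 9 and MM 10 lay within the control range for Psmb10 to Psmb7. Without No MM 3 and No MM 4 the first 2 differences turned positive, to 0.345 and 0.392, and the third was 0.272 (exact permutation over 56 assignments, p = 0.250, 0.125 and 0.393; adjusted 0.375, 0.375 and 0.393).

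**Figure D3:**
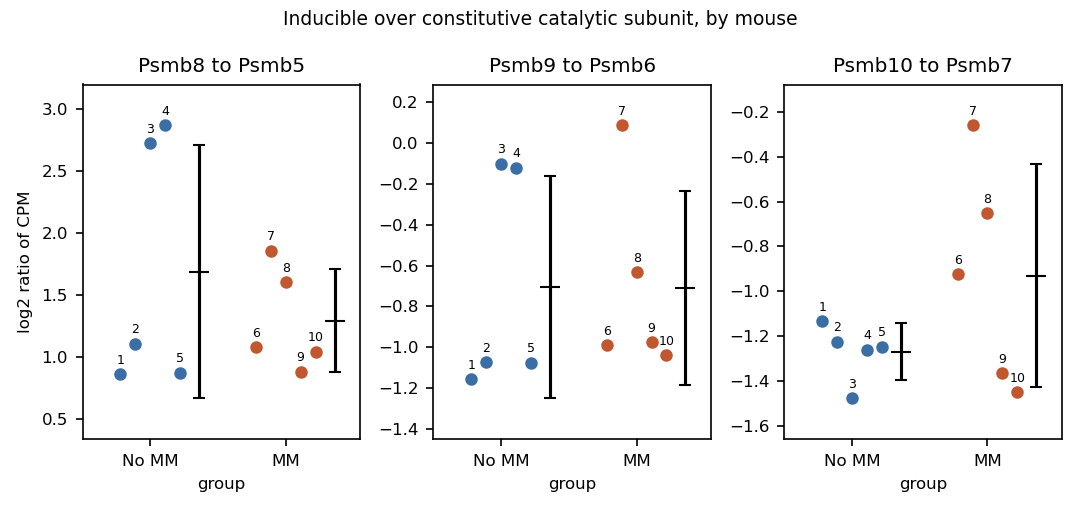
Log2 ratio of CPM of an inducible over its constitutive catalytic subunit, 1 point per mouse numbered as in the text, for No MM (blue) and MM (orange), with the group mean and SD (n = 5) in black beside the points. No MM 3 and 4 reach 2.73 and 2.87 for Psmb8 to Psmb5, and MM 7 is the highest MM mouse in each panel.

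Of the other genes of the pathway, a list of ubiquitin genes, shuttles, assembly and transcription factors with 31 genes measured, 24 were lower and 7 higher in MM by fitted value, beside 52.7% of all tested genes below 0, with a median of -0.25. None was called by edgeR or DESeq2, and 5 (16.1%, beside 10.3% of all tested genes) were lower at unadjusted p under 0.05 by edgeR: Psmb8, the ubiquitin genes Ubb and Rps27a, Nploc4, a cofactor of the Vcp segregase, and Ubqln2, a shuttle. Without No MM 3 and No MM 4 the median was -0.14 and 2 genes were below that threshold; Psmb8 went from -1.02 to -0.25 and Ubqln2 from -0.46 to -0.14. Ubb was at -0.55 ± 0.22 (adjusted p = 0.318) and -0.61 without No MM 3 and No MM 4. Nfe2l1, the transcription factor that induces proteasome genes when the proteasome is inhibited, was at -0.42 ± 0.23 (adjusted p = 0.412), and at -0.15 without No MM 3 and No MM 4. Ddi2, the protease that activates Nfe2l1, was at 0.34 ± 0.16 (adjusted p = 0.375).

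A comparison with other large complexes placed these values. Of 82 cytosolic ribosomal protein genes, 70 (85.4%) were lower in MM at unadjusted p under 0.05, with a median log2 fold change of -0.71. Of 75 mitochondrial ribosomal protein genes 48 (64.0%) were, with a median of -0.44. The share was 25.5% for the proteasome genes and 10.3% over all tested genes. Without No MM 3 and No MM 4 the counts were 39 (47.6%) and 24 (32.0%), and the medians -0.58 and -0.39. The share was then 10.6% for the proteasome genes and 3.37% over all tested genes. By edgeR no gene of the 3 lists was called. DESeq2 called 14 cytosolic and 1 mitochondrial ribosomal protein gene and 0 proteasome genes at an adjusted p under 0.05, beside 1.27% of all genes given one. Leaving out No MM 1 as well gave medians of -0.22 and -0.13 for the ribosomal lists. All 3 lists were high in No MM 1, with mean deviations of 0.62, 0.67 and 0.53, and the cytosolic ribosomal genes reached 0.55 and 0.58 in No MM 3 and No MM 4, where the proteasome genes reached 0.21 and 0.13.

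**Figure D4:**
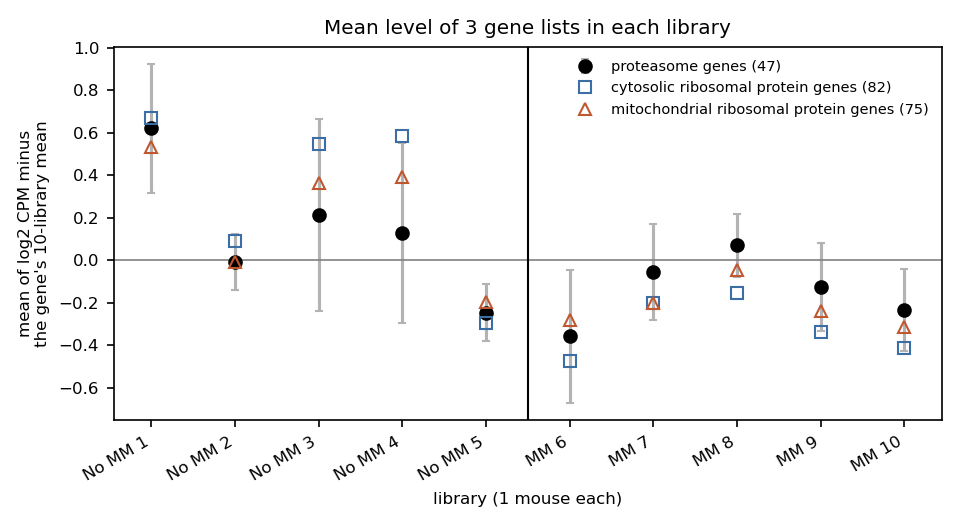
Mean deviation of log2 CPM from each gene's 10-library mean in each library, for the 47 proteasome genes (black, bars are the SD over the 47 genes), 82 cytosolic (blue) and 75 mitochondrial (orange) ribosomal protein genes. The proteasome genes run from 0.62 in No MM 1 to -0.36 in MM 6, and No MM 5, at -0.25, lies among the MM libraries.

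Promoter sequence was described for a few members chosen after their values were seen. RefSeq promoters of GRCm38.p6, 250 bases before to 50 after the start, matched 40 of the 48 members by symbol. Below are the last 150 bases before the start, 5′ to 3′ on the gene's strand. They are given for Psmb5 and Psmb6, catalytic genes with lower fitted levels in MM, and for Psmd8, with the lowest log2 fold change. Psmc6 and Psme4, which were nearly level between groups, follow. Capitals mark TGACNNNGC, the core of the antioxidant response element, and CCGGAAG, a motif of ETS factors, on either strand.
Psmb5 (chr14:54617996-54618145, minus strand): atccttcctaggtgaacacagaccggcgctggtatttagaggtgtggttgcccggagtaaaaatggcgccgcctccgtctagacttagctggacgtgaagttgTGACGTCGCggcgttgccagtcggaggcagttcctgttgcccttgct
Psmb6 (chr11:70525207-70525356, plus strand): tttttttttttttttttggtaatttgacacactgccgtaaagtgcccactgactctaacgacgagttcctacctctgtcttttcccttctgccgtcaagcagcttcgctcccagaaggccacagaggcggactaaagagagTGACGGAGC
Psmd8 (chr7:29180674-29180823, minus strand): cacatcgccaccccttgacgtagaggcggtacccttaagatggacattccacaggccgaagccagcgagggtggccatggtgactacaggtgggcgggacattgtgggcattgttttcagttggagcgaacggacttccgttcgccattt
Psmc6 (chr14:45329674-45329823, plus strand): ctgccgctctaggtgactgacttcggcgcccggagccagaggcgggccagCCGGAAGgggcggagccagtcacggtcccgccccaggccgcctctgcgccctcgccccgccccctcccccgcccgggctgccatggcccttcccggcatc
Psme4 (chr11:30771625-30771774, plus strand): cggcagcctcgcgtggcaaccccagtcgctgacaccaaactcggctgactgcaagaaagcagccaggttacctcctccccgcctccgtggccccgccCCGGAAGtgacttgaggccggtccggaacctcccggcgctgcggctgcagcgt

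The Psmb5 and Psmb6 windows hold the antioxidant core, and Psmc6 and Psme4 hold it too, outside the printed bases. Over the whole window, TGACNNNGC was in 6 of 40 member promoters (15.0%), beside 12.4% of 32544 promoters of the same length. CCAAT was in 14 (35.0%), beside 37.4%, and TGACTCA, the AP-1 motif, in 1 (2.5%), beside 5.19%. CCGGAAG was in 14 of 40 (35.0%), beside 8.91% of all promoters, 41.0% of 61 cytosolic and 34.8% of 66 mitochondrial ribosomal protein genes with a promoter. These matches are of letters on both strands, with no measurement of binding here.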

How the data were processed

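The authors deposited whole-number read counts per gene and library, with gene positions and lengths, for stranded total RNA libraries sequenced as paired reads of 76 bases. The submitters' processing notes name FastQC 0.11.5 and STAR; the counting program and the genome build are not given in the sources used here. Normalized values, FPKM and the authors' own fold changes and p-values stand in the same table and were not used. Of the 48 member positions, 34 matched GENCODE release 21 of the mouse (GRCm38). There, 10 members overlap a gene on their own strand and 17 one on the other, and whether the counting used strand is not stated.

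Counts were filtered with filterByExpr, scaled by TMM and tested for MM against No MM with glmQLFit and glmQLFTest of edgeR 4.0.16 in R 4.3.3, without covariates, over 16186 genes. The SE of a log2 fold change is its size divided by the square root of F. Log2 CPM used a prior count of 2. Ratios were compared by exact permutation over all assignments of the 10 mice to groups of 5, two-sided, with Benjamini-Hochberg adjustment over the 3 ratios. Steps were tested on simulated data. P-values set the difference between groups against the spread between these mice. Alternatives were DESeq2 1.42.0, other size factors and filters, immunoglobulin genes left out, a prior count of 0.5, and libraries left out. Leaving out No MM 1, 3 and 4 together, and DESeq2 without No MM 3 and 4, were added after seeing the data. Values in every mouse were given for the catalytic and activator genes, the 4 members of lowest p in each direction, and the highest and lowest per kb; further members were named for their values. The members and lists were chosen with earlier results of these data known.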

Additional observations from a re-analysis of the deposited data

Results flagged for a closer look

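In 6 of 102 sets of 5 mice, 1 mouse stood apart from its group by Dixon's test (critical value 0.71), where chance alone gives about 1 in 20, or 5.1. The sets reuse the same 10 mice, and members moved together within a mouse, so that number cannot judge any 1 mouse. Of the 6, 5 were in No MM 1. No MM 1 was high for Psmc2 at 228 CPM (next 119.6), Psmb10 at 115 CPM (next 60.1), Psmd7 at 195 CPM (next 113), Psmd10 at 44.2 CPM (next 27.1) and Psmb2 at 138 CPM (next 90.1). MM 6 was low for Psmd5, a chaperone of the cap, at 38.8 CPM (next 52.1).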

How the results depend on the processing

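The labels number the control mice 1 to 5 and the MM mice 6 to 10 and match no mice between groups, so no paired analysis was made. The paper calls its own differential analysis paired, and its text names no matching of mice. Over 19 alternatives the number of members called was 0 in each, and the median log2 fold change ran from -0.44 to -0.02. The number of members lower in MM at unadjusted p under 0.05 was 12 (25.5%, beside 10.3% of all tested genes). With 1 mouse left out it ran from 6 (beside 11.4% without No MM 1 and 10.6% without MM 6) to 22 (beside 14.5% without No MM 5). Without No MM 3 and 4 it was 5 by edgeR (10.6%, beside 3.37%). It was also 5 by DESeq2, where the share of all tested genes was not taken. Without No MM 1, 3 and 4 it was 0 (beside 0.519%), and the median log2 fold change was -0.021. That last comparison had 2 controls, and the cause of these shifts was not tested.

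The Psmb8 to Psmb5 ratio turned to 0.345 and Psmb9 to Psmb6 to 0.392 without No MM 3 and 4; with 1 mouse left out the latter ran from -0.20 to 0.15. The sign of a fold change turned without No MM 3 and 4 for 4 of 47 members, Psme4 (0.064; DESeq2 0.077), Psma8 (-0.0064), Psmg3 (-0.13; DESeq2 -0.11) and Psmc6 (-0.033; DESeq2 -0.017). It turned without No MM 1, 3 and 4 for 20 of 47, among them Psmb10 (0.24), Psme1 (0.094), Psme3 (0.040), Psme4 (0.018), Psmc4 (0.0010) and Psmc6 (-0.035). It turned with some 1 mouse left out for 8 of 47. Of these, Psmd7, Psmd9, Psmd10 and Psmf1 turned without No MM 1 (to 0.05, 0.18, 0.10 and 0.25), while Psmb10 ran from -0.26 to 0.21, Psme3 from -0.20 to 0.17, Psmg3 from -0.049 to 0.17 and Psmc6 from -0.038 to 0.067. With 5 mice a group and this spread, small differences were not detectable.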

Other observations

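Both members on chromosome 8, Psmb10 and the lid gene Psmd7, stood below their own means in No MM 3 and No MM 4. On the log2 scale they were at -0.14 and -0.09 for Psmb10 and -0.23 and -0.22 for Psmd7. This was not particular to those libraries. Both genes were also below their means in No MM 5, MM 6, MM 9 and MM 10, and lowest in MM 10 (-0.68 and -0.24). The median deviation of the 547 chromosome 8 genes with a mean above 10 CPM was -0.32 and -0.34 in No MM 3 and No MM 4, the lowest of 20 chromosomes. It was between -0.001 and 0.21 in the other 8. The part of this in the levels of Psmb10 and Psmd7 was not tested.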
